A study of Mus musculus with 11 samples.

Results

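Of the 43346 genes in the table of expression values, 34 were chosen by name as members of the unfolded protein response and the integrated stress response, and all 34 were found. They form a pair of arms. The chaperone arm holds 22 genes, the sensor and factor genes Ern1, Atf6 and Xbp1 and genes for chaperones, disulfide isomerases and degradation factors of the endoplasmic reticulum (ER), many of which ATF6 and XBP1 are known to control. The ATF4 arm holds 12 genes, made up of the transcription factor gene Atf4 and genes that it is known to drive.

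RNA came from liver cells caught with magnetic beads against EpCAM, an epithelial surface protein, and named cholangiocytes, the cells that line bile ducts, in the labels. Each of the 11 libraries held the RNA of 1 male, a wildtype C57BL/6 mouse of 14 to 16 weeks. The 4 Control mice ate chow. The 4 DDC mice ate for 10 days the DDC diet, a porphyrin-forming diet known to injure the bile ducts, and the 3 R15 mice ate it for 10 days and then chow for 15 days. Each mouse was sampled at 1 time, so R15 mice are not the DDC mice followed later. Levels are FPKM, that is, fragments scaled to gene length and sequencing depth. They compare genes as well as libraries, because they are per length.

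Unfolded proteins in the ER activate 3 sensors, IRE1 (gene Ern1), ATF6 and PERK (gene Eif2ak3). IRE1 splices the Xbp1 mRNA, ATF6 is cut free from the membrane, and the resulting factors raise the cell's folding and degradation capacity. PERK phosphorylates the translation factor eIF2, as do the kinases that sense heme shortage (Eif2ak1), double-stranded RNA (Eif2ak2) and amino acid shortage (Eif2ak4). Translation then slows in general while ATF4 protein is made, and ATF4 drives amino acid synthesis and stress genes. Gene levels do not show the splicing of Xbp1, the cleavage of ATF6, the phosphorylation of eIF2 or the amount of ATF4 protein, so the comparisons concern mRNA levels only.

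Whole reads recovered from the values came to 49339240 to 72929107 per library, and the members rested on 14 reads (Chac1, lowest library) to 53685 reads (Calr, highest library). Summed FPKM of 10 cholangiocyte marker genes lay between 8018 and 11079 in all libraries. Of these 10 markers, 5 passed as higher and 3 as lower in DDC against Control. Of all genes tested, 33.5% passed as higher and 31.9% as lower, and the marker counts that follow stand beside these shares. Summed FPKM of 17 acinar genes, which encode digestive enzymes of the pancreas, was 8927, 2378 and 1071 in Control 1 to 3, 1155 in DDC 1 and 1455 in R15 3, against 7.71 to 15.9 in the other 6 libraries. Gastric mucous genes summed to 11019 FPKM in Control 3 and to 69.7 to 197 elsewhere. Of other cells, summed macrophage markers rose from 129 to 153 FPKM in Control to 1362 to 2445 in DDC, with 9 of 12 passing as higher (Marco reached the filter on low values with no Control library), and stood at 143, 741 and 173 in R15 1 to 3. Summed stellate cell and fibroblast markers lay at 30.2 to 60.1, 419 to 506 and 161 to 222 FPKM in Control, DDC and R15, nearly all of it the single gene Rgs5 (27.3 to 57.6, 414 to 500.3 and 157 to 199.7). Only 2 of these 8 markers were tested and 1 passed, and Lrat, Des, Pdgfrb and Dcn were under 1 FPKM in every Control and DDC library. Summed hepatocyte markers were 2913 to 3612, 1060 to 1609 and 1799 to 2477 FPKM, most of it Alb and Ttr. Of the 12 hepatocyte markers, 4 passed as higher and 4 as lower in DDC (median 0.10), near the shares of all genes. Summed endothelial markers were 125 to 550, 33.2 to 74.3 and 79.8 to 272 FPKM, with 11 of 12 passing as lower in DDC. No marker list was at 0 in all libraries. These sums differed between the groups as given, and their part in the members' differences was not tested. In bulk samples of this kind, fewer cells of a type and less RNA per cell cannot be told apart.

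Promoter windows of the members were searched for the DNA elements for which the arms are known. The ER stress response element (ERSE), at which ATF6 and the CCAAT-binding factor NF-Y are known to bind, was searched as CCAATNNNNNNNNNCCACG on both strands of RefSeq promoter windows (GRCm38.p6, from 250 bases before to 50 bases after the start site). It was present in 8 of the 19 chaperone arm windows (42.1%), in 0 of the 14 ATF4 arm windows and in 39 of 32851 windows of all genes (0.119%). These 8 were Hspa5, Dnajc3, Pdia6, Creld2, Syvn1, Calr, Canx and Hsp90b1. The related ERSE-II (ATTGGNCCACG) was present in Dnajb11 and Herpud1, against 12 windows of all genes (0.0365%). Both elements contain a CCAAT box, so every such match is also a CCAAT match. CCAAT alone was found in 84.2% of chaperone arm windows, 57.1% of ATF4 arm windows and 37.4% of all windows, and CCACG alone in 84.2%, 64.3% and 32.8%. The C/EBP-ATF response element TGATGNAA, which ATF4 is known to bind, was found in 3 of the 14 ATF4 arm windows (21.4%: Trib3, Asns and Chac1), in 1 chaperone arm window (Herpud1) and in 3.97% of all windows. Windows were available for 31 of the 34 members, and Atf6, Hyou1 and Manf are named only.

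Shown here are the elements of Hspa5, the best known ERSE gene, of the 3 ERSE genes that passed as lower in DDC, and of both ATF4 arm members with an upstream C/EBP-ATF element. Each is printed in the direction of the gene, with 15 bases on either side. Capitals mark the C/EBP-ATF element, and of the ERSE only its CCAAT and CCACG parts. In Creld2 and Chac1 the element lies on the opposite strand, so the capitals read as its reverse complement.
Hspa5 (chr2:34772010-34772058, plus strand): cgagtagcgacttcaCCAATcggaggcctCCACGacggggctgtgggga
Dnajc3 (chr14:118937812-118937860, plus strand): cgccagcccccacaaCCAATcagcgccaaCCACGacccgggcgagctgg
Canx (chr11:50325785-50325833, minus strand): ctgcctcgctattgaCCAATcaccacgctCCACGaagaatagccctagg
Creld2 (chr15:88819505-88819553, plus strand): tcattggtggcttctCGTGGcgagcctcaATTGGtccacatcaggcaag
Asns (chr6:7693210-7693247, minus strand): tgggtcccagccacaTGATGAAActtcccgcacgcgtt
Chac1 (chr2:119351034-119351071, plus strand): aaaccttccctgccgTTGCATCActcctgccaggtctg
A match is a run of letters, and binding at it was not measured here.

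**Figure D1:**
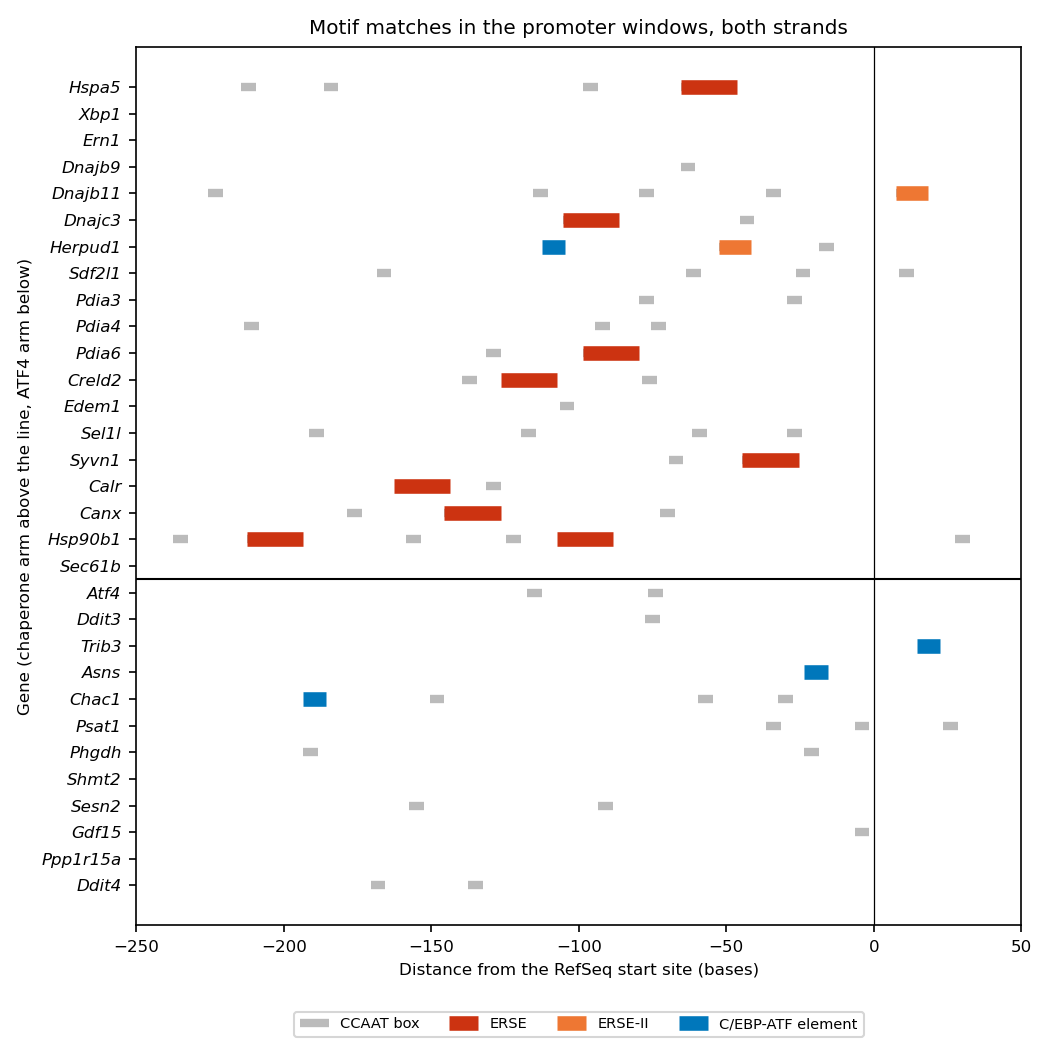
Positions of motif matches on both strands in the promoter windows of 31 members, by distance in bases from the RefSeq start site. Grey bars are CCAAT boxes, red bars the ERSE, orange bars the ERSE-II and blue bars the C/EBP-ATF element. The 8 genes with an ERSE all lie above the line, in the chaperone arm.

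The comparison of DDC with Control asks how the diet changed these genes. The ATF4 arm was mostly higher and the chaperone arm was split. Of the 11 ATF4 arm genes tested, 8 rose, 1 fell and 2 did not pass (limma, adjusted p under 0.05). Of the 22 chaperone arm genes, 4 rose, 7 fell and 11 did not pass. Among all 15264 genes tested, 33.5% passed as higher and 31.9% as lower. The median log2 difference was 0.49 for the ATF4 arm, -0.02 for the chaperone arm and 0.003 for all genes tested. Chac1 was below the filter on low values and was not tested, and Psat1 reached the filter through DDC and R15 libraries alone, so these counts cover the members that passed it. Averaged over the 12 ATF4 arm genes, the log2 level relative to the Control mean lay at -0.15 to 0.12 in the 4 Control libraries and at 0.70 to 0.85 in the 4 DDC libraries, which do not overlap. Averaged over the 22 chaperone arm genes, it lay at -0.15 to 0.13 in Control and at -0.03 to 0.02 in DDC, inside the Control range. After each library was rescaled to 1 total FPKM, 4162 of all genes passed as higher and 5518 as lower, instead of 5112 and 4869. The ATF4 arm still gave 8 higher genes.

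**Figure D2:**
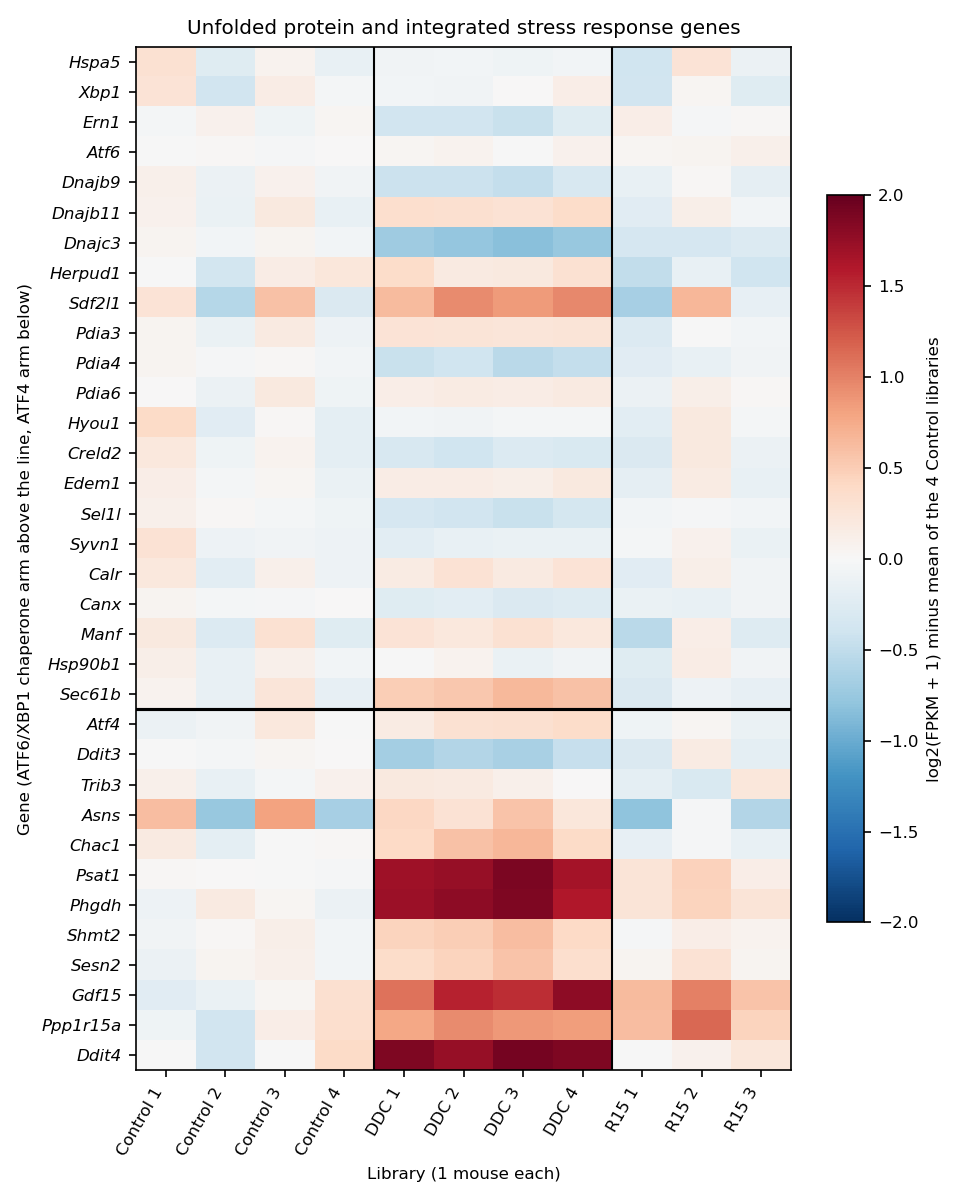
Heat map of the 34 members (vertical) in the 11 libraries (horizontal), coloured by log2(FPKM + 1) minus the mean of the 4 Control libraries, red above and blue below. Below the line, Psat1, Phgdh, Gdf15 and Ddit4 stand out in red in the DDC libraries, while the chaperone arm above it holds both red and blue genes.

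Of the 3 sensor and factor genes at the head of the chaperone arm, 1 fell and 2 did not pass, where 31.9% of all genes passed as lower. Ern1, the gene of IRE1, fell from 9.36 ± 0.537 to 7.06 ± 0.469 FPKM (SD, n = 4 each), a log2 difference of -0.36 ± 0.06 (SE; limma adjusted p = 0.00031). Atf6 (mm10 chromosome 1, 170704674 to 170867771) had 11.4, 11.6, 11.3 and 11.5 FPKM in Control 1 to 4, 11.8, 12.1, 11.4 and 12.2 in DDC 1 to 4 and 11.9, 12.0 and 12.3 in R15 1 to 3. Its libraries differed by little and the Control and DDC ranges overlap, with a log2 difference of 0.05 (95% interval -0.03 to 0.12, limma adjusted p = 0.24). Xbp1 (chromosome 11, 5520659 to 5525893) had 80.1, 50.2, 73.0 and 63.9 FPKM in Control, 63.1, 62.8, 66.2 and 72.0 in DDC and 50.1, 67.8 and 55.6 in R15. The Control libraries alone spanned the DDC range, and the interval of the log2 difference between DDC and Control was -0.31 to 0.31.

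The ER chaperones and co-chaperones gave 2 rises and 3 falls among 9, where 33.5% of all genes passed as higher and 31.9% as lower. Hspa5 (chromosome 2, 34771970 to 34777547) encodes BiP, the main ER chaperone of the HSP70 family. It had 179, 122, 152 and 131 FPKM in Control, 137, 139, 135 and 138 in DDC and 109, 174 and 133 in R15. The 4 DDC values lie close together inside the Control range, and the log2 difference was -0.07 (95% interval -0.39 to 0.26, limma adjusted p = 0.70). Hsp90b1, the HSP90 of the ER, had mean levels of 164 ± 14.5 FPKM for Control and 159 ± 9.71 FPKM for DDC (SD, n = 4 each), at a log2 difference of -0.04. Exons of Hsp90b1 share 10.3% of their bases with 1810014B01Rik on the opposite strand, which had at most 3.79 FPKM. On the same strand they share 3.3% with Gm25745 (at most 447 FPKM) and 2.08% with Gm15344 (at most 205 FPKM). Hyou1, a large HSP70 relative that serves BiP as exchange factor, had a log2 difference of -0.05, and neither Hyou1 nor Hsp90b1 passed.

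Dnajc3 (chromosome 14, 118937932 to 118981702) encodes p58IPK, an ER co-chaperone also known to inhibit PERK. It had 39.6, 36.7, 39.7 and 36.9 FPKM in Control, 22.9, 22.0, 20.9 and 22.1 in DDC and 30.0, 30.0 and 31.6 in R15. The groups do not overlap, with R15 between the others, and Dnajc3 had the largest fall of the 33 members tested at -0.77 ± 0.04 (SE; limma adjusted p = 3.7e-07). Dnajb9 (chromosome 12, 44205897 to 44210068), a co-chaperone of BiP known to restrain IRE1, had 26.7, 22.8, 26.4 and 23.7 FPKM in Control, 18.3, 18.2, 17.6 and 19.7 in DDC and 22.3, 25.1 and 21.8 in R15. All 4 DDC values lie below every other library, at a log2 difference of -0.41 ± 0.06 (SE; limma adjusted p = 0.00025). Creld2, another ER stress gene, passed as lower at -0.32 ± 0.11 (SE; limma adjusted p = 0.022), and lost the call without Control 1 (adjusted p = 0.062), without Control 3 (0.053) or without DDC 2 (0.056).

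On the rising side, Sdf2l1 (chromosome 16, 17130138 to 17132383), an ER protein that works with BiP and its co-chaperones, had 11.2, 5.79, 14.0 and 7.195 FPKM in Control, 14.7, 18.5, 17.1 and 18.5 in DDC and 5.32, 15.0 and 7.999 in R15. All DDC values lie above all Control values, but Control and R15 each vary by over 2-fold within the group. Its log2 difference was 0.85 ± 0.30 (SE; limma adjusted p = 0.030), and the call was lost without Control 2 (adjusted p = 0.080) or Control 4 (0.076) and without DDC 2, DDC 3 or DDC 4 (0.065, 0.057 and 0.064). Dnajb11 (chromosome 16, 22857845 to 22879634), a co-chaperone of BiP for unfolded clients, had 23.9, 20.3, 25.8 and 20.0 FPKM in Control, 28.6, 28.3, 27.7 and 29.1 in DDC and 19.0, 24.5 and 21.6 in R15. All 4 DDC values lie above every other library, at 0.33 ± 0.09 (SE; limma adjusted p = 0.0085). Manf, a secreted ER stress protein, was at 17.8 ± 3.84 FPKM in Control and 21.01 ± 0.709 in DDC (SD, n = 4 each) and did not pass (0.25, adjusted p = 0.19).

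Of the 3 disulfide isomerases, 1 rose, 1 fell and 1 did not pass, beside 33.5% of all genes higher and 31.9% lower. Pdia4 (chromosome 6, 47796142 to 47813512) had 102, 96.2, 100.1 and 94.1 FPKM in Control, 72.2, 74.0, 67.5 and 70.0 in DDC and 84.0, 88.8 and 92.9 in R15. No DDC library reached the lowest of the others, and the log2 difference was -0.46 ± 0.05 (SE; limma adjusted p = 1.2e-05). Pdia3, which works on glycoproteins together with calnexin and calreticulin, rose from 170.3 ± 17.98 to 203 ± 1.16 FPKM (SD, n = 4 each), or 0.26 ± 0.08 (SE; limma adjusted p = 0.014). Pdia6 did not pass (0.15, adjusted p = 0.082), although it did without Control 3 (0.22, adjusted p = 0.0070). Of the 2 lectin chaperones that bind the same glycoproteins, 1 fell and 1 did not pass. Canx (calnexin) fell from 123 ± 3.13 to 103 ± 2.45 FPKM (SD, n = 4 each), a log2 difference of -0.25. Calr (calreticulin) was at 229 ± 29.8 and 267 ± 11.6 FPKM and did not pass (0.23, adjusted p = 0.067), although it did without Control 1 (0.30, adjusted p = 0.023) or R15 2 (0.23, adjusted p = 0.048).

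Among the 4 genes of ER-associated degradation, which returns misfolded proteins to the cytosol, 1 fell, beside 31.9% of all genes. Sel1l, the adaptor of the HRD1 ubiquitin ligase, fell from 22.7 ± 1.34 to 17.2 ± 0.6252 FPKM (SD, n = 4 each), a log2 difference of -0.38 ± 0.05 (SE; limma adjusted p = 4.1e-05). Syvn1, which encodes HRD1 itself and stood apart in Control 1 (18.8 FPKM), was at -0.15 (adjusted p = 0.15), Edem1, a lectin that picks out misfolded glycoproteins, at 0.15 (0.11) and Herpud1, a membrane organiser of the same complex, at 0.26 (0.090), and none of these 3 passed. Herpud1 passed without Control 4 (0.33, adjusted p = 0.042), and Edem1 without R15 2 (0.15, adjusted p = 0.030). Sec61b (chromosome 4, 47474658 to 47483242), a subunit of the channel through which proteins enter the ER, had 32.4, 27.5, 36.7 and 27.3 FPKM in Control, 43.8, 45.3, 48.5 and 46.9 in DDC and 24.9, 28.6 and 27.3 in R15. Its DDC values lie above all others, at a log2 difference of 0.57 ± 0.09 (SE; limma adjusted p = 0.00028).

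Of the 8 chaperone arm genes with an ERSE in their window, 3 passed as lower (Dnajc3, Creld2 and Canx) and 5 did not pass, of which Calr and Pdia6 passed as higher with single libraries left out, as given above. Of all genes tested, 31.9% passed as lower and 33.5% as higher, and nothing particular to genes with an ERSE is read from these counts. Both genes with an ERSE-II were above the Control mean, with Dnajb11 passing and Herpud1 not. Of the 4 genes with a C/EBP-ATF element, Herpud1, Trib3 and Asns did not pass and Chac1 was not tested.

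Spread within the groups differed for the chaperone arm. The median coefficient of variation of its 22 genes was 11.5% over the 4 Control libraries, 3.61% over the 4 DDC libraries and 10.9% over the 3 R15 libraries, where all genes tested had 9.97%, 5.82% and 8.17%. Control 1 was the highest of its group for 12 of the 22 genes and Control 3 for 7, and Control 2 was the lowest for 13. R15 2 was the highest of its group for 17 and R15 1 the lowest for 17. Control 1 is the library with the most acinar and Control 3 the one with the most gastric transcripts, and R15 2 is the one of its group with the most macrophage markers (741 FPKM) and B and plasma cell markers (179 against 40.1 and 61.7 FPKM). Control 2, the lowest for 13 genes, also held acinar transcripts (2378 FPKM, against 1071 in Control 3). So did R15 3 (1455 FPKM), which was the highest of its group for 4 genes. Without Control 1 and Control 3, 8 chaperone arm genes passed as higher instead of 4, and 6 as lower. Without the 5 libraries with acinar transcripts, which leaves 1 Control library that is assumed to vary like the other groups, 2 passed as higher and 6 as lower. The part of these transcripts in the spread was not tested.

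**Figure D3:**
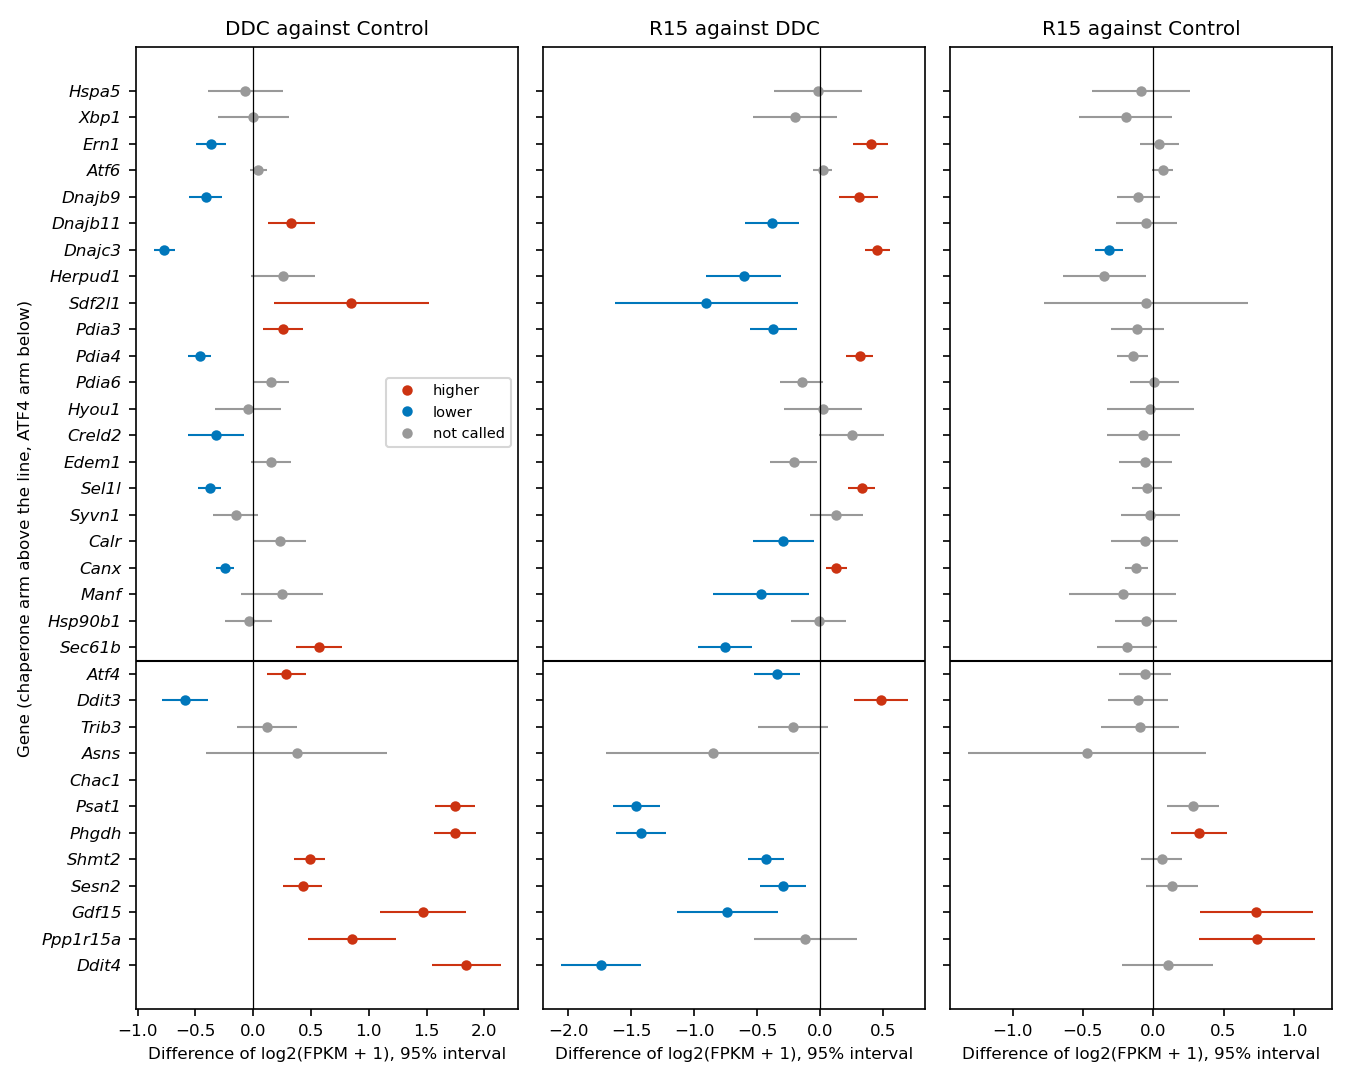
Log2 differences of the 33 tested members with 95% intervals in the 3 comparisons (limma), red for genes that passed as higher, blue for lower, grey for the rest. In DDC against Control, 8 ATF4 arm genes are red below the line, while 4 red and 7 blue genes stand among the 22 of the chaperone arm.

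In the ATF4 arm, Atf4 itself rose slightly and Ddit3 fell. Atf4 (chromosome 15, 80255184 to 80257540) had 68.3, 71.0, 86.1 and 74.1 FPKM in Control, 83.3, 92.0, 93.3 and 96.5 in DDC and 70.4, 76.7 and 67.9 in R15. Control 3 overlaps the DDC range, and the log2 difference was 0.29 ± 0.08 (SE; limma adjusted p = 0.0072). Ddit3 (chromosome 10, 127290774 to 127296288) encodes CHOP, a transcription factor that is induced by ATF4 and known for promoting cell death under lasting ER stress. It had 8.56, 8.29, 8.89 and 8.59 FPKM in Control, 5.01, 5.37, 5.13 and 5.96 in DDC and 6.86, 9.68 and 7.39 in R15. Every DDC library lies below every other one, and the log2 difference was -0.59 ± 0.09 (SE; limma adjusted p = 0.0002). Without the 5 libraries with acinar transcripts the difference was -0.57 and did not pass (adjusted p = 0.059). Exons of Ddit3 share 3.97% of their bases with Mars on the opposite strand, which had at most 18.1 FPKM. They share 6.13% with another entry named Ddit3 on the same strand, for which no level was available. The sources used here do not say whether reads were counted by strand, so reads of the shared bases cannot be told apart.

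The 3 enzymes of serine and glycine synthesis rose, Phgdh and Psat1 by more than Shmt2. Phgdh (chromosome 3, 98313170 to 98339990), the first enzyme of serine synthesis from a glycolytic intermediate, had 3.67, 4.66, 4.15 and 3.60 FPKM in Control, 15.4, 16.3, 17.3 and 14.2 in DDC and 4.99, 5.83 and 5.01 in R15. Psat1 (chromosome 19, 15904678 to 15947337), the next enzyme of the pathway, had 0.958, 0.936, 0.920 and 0.910 FPKM in Control, 5.27, 5.45, 6.09 and 5.10 in DDC and 1.32, 1.66 and 1.11 in R15. For both genes the DDC values lie well above all others and the 3 R15 values lie above all Control values. The log2 differences were 1.75 ± 0.08 for Phgdh (SE; limma adjusted p = 2.1e-07) and 1.74 ± 0.08 for Psat1 (1.8e-07). Psat1 reached the filter on low values with no Control library. On the log2(FPKM + 1) scale the change of a low gene is understated, and the ratio of mean FPKM was 3.93 for Phgdh and 5.88 for Psat1. Shmt2, which turns serine into glycine in mitochondria, rose from 14.4 ± 0.954 to 20.6 ± 1.37 FPKM (SD, n = 4 each), or 0.49 ± 0.06 (SE; limma adjusted p = 5.6e-05).

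Asns, asparagine synthetase, is described in full because its Control libraries differ so much, a choice made after its values were seen. It had 3.80, 0.855, 4.47 and 0.974 FPKM in Control, 3.19, 2.81, 3.67 and 2.67 in DDC and 0.791, 2.08 and 1.08 in R15. Control 1 and Control 3 lie above the DDC mean, and Control 2 and Control 4 lie with R15 1 and R15 3. The log2 difference was 0.38 (95% interval -0.41 to 1.16, limma adjusted p = 0.37) with all libraries and 1.09 (adjusted p = 0.0018) without Control 1 and Control 3. Summed acinar markers were 8927, 2378, 1071 and 10.7 FPKM in Control 1 to 4, and gastric markers 197, 77.4, 11019 and 134. Their part in the Asns values was not tested.

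Among the other effectors, Ddit4 (chromosome 10, 59949675 to 59951770), an inhibitor of mTORC1 also called REDD1, had the largest rise of the members tested on the log2(FPKM + 1) scale, while its ratio of mean FPKM (3.61) was below those of Psat1 (5.88), Gdf15 (4.03) and Phgdh (3.93). It had 28.2, 21.4, 28.2 and 37.4 FPKM in Control, 105, 96.7, 109 and 105 in DDC and 28.0, 30.0 and 33.3 in R15. R15 lies within the Control range and DDC far above both, at a log2 difference of 1.84 ± 0.13 (SE; limma adjusted p = 1.8e-06). Gdf15 (chromosome 8, 70629393 to 70632456), a secreted stress cytokine, had 1.05, 1.197, 1.47 and 1.99 FPKM in Control, 4.09, 5.95, 5.70 and 7.27 in DDC and 2.71, 3.81 and 2.57 in R15. The groups do not overlap and R15 lies between the others. Gdf15 differed by 1.47 ± 0.17 (SE; limma adjusted p = 3.3e-05) between DDC and Control. Sesn2, a leucine sensor that restrains mTORC1, rose by 0.43 ± 0.08 (SE; limma adjusted p = 0.00064), from 5.44 ± 0.443 to 7.66 ± 0.629 FPKM (SD, n = 4 each).

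Chac1, which degrades glutathione, had 0.486, 0.148, 0.300 and 0.336 FPKM in Control, 0.737, 0.969, 1.09 and 0.705 in DDC and 0.167, 0.287 and 0.189 in R15. The 4 DDC values lie above all others, on 14 to 103 reads a library. With no filter on low values it was tested and passed as higher in DDC (0.51 ± 0.09 SE, limma adjusted p = 0.0012). In that fit 9 of the 12 ATF4 arm genes passed as higher, beside 6070 of all 29687 genes tested.

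The feedback genes differed. Ppp1r15a (chromosome 7, 45522916 to 45526268), also called GADD34, directs the phosphatase that reverses eIF2 phosphorylation. It had 11.6, 9.21, 13.7 and 15.9 FPKM in Control, 21.8, 24.6, 23.5 and 22.8 in DDC and 19.4, 28.6 and 17.3 in R15. DDC and R15 overlap, and both lie above all Control values. DDC differed from Control by 0.85 ± 0.17 (SE; limma adjusted p = 0.0014), and by 0.54 (adjusted p = 0.086) without the 5 libraries with acinar transcripts. Trib3, a pseudokinase that binds ATF4 and CHOP, had 1.78 ± 0.230 and 2.01 ± 0.184 FPKM (SD, n = 4 each) and did not pass (0.12, adjusted p = 0.38).

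Leaving out any single library left 8 ATF4 arm genes higher in DDC, the count with all 11 libraries. It was 9 without Control 1 and Control 3 and 7 without the 5 libraries with acinar transcripts.

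**Figure D4:**
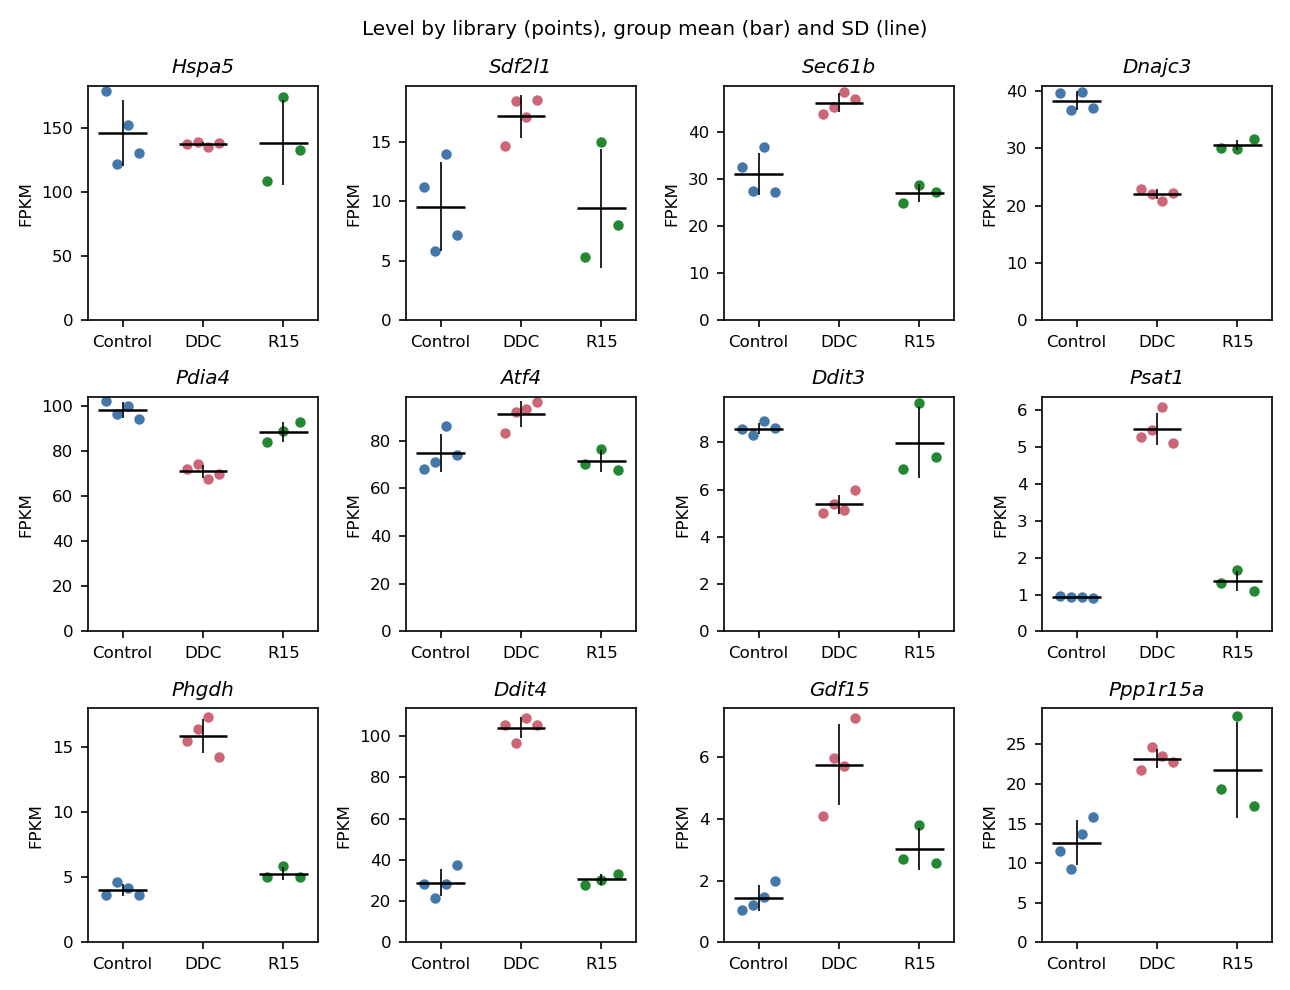
FPKM of 12 members by group, with 1 point per library, a bar for the group mean and a line for the SD. Hspa5 is at similar means in the 3 groups, Dnajc3, Pdia4 and Ddit3 are lowest in DDC, Psat1, Phgdh and Ddit4 are highest in DDC, and Gdf15 and Ppp1r15a lie above Control in R15.

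R15 against DDC asks what differed after the return to chow. In the ATF4 arm 7 of 11 tested genes were lower in R15, 1 was higher and 3 did not pass, where 28.8% of all genes passed as lower and 33.4% as higher. In the chaperone arm 6 of 22 were higher, 7 were lower and 9 did not pass. The median log2 difference was -0.43 for the ATF4 arm, -0.01 for the chaperone arm and 0.04 for all genes tested. After each library was rescaled to 1 total FPKM, the median of all genes was 0.14, with 6172 higher and 3305 lower instead of 5099 and 4397, and the chaperone arm gave 9 higher and 5 lower. This comparison shares the DDC libraries with the first, so a high or low DDC library enters both with opposite signs.

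In R15 against DDC, Ddit4 was lower by 1.74 on the log2 scale (-1.74 ± 0.14, SE; limma adjusted p = 8.3e-06), Psat1 by -1.46 ± 0.08 (1.5e-06) and Phgdh by -1.42 ± 0.09 (2.0e-06). Gdf15 was at -0.74, Shmt2 at -0.43, Atf4 at -0.34 and Sesn2 at -0.30, all passing as lower. Ddit3 was the gene that passed as higher, at 0.48 ± 0.10 (SE; limma adjusted p = 0.0014). Ppp1r15a (-0.12, adjusted p = 0.60), Trib3 (-0.21, 0.16) and Asns (-0.85, 0.075) did not pass. Asns passed at the same -0.85 without Control 2 (0.049) or Control 3 (0.044), which enter through the shared estimate of the spread, and Trib3 without R15 3 (-0.37, 0.010).

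In the chaperone arm, Dnajc3 was higher in R15 than in DDC by 0.46 ± 0.04 (SE; limma adjusted p = 2.1e-05), Ern1 by 0.41, Sel1l by 0.33, Pdia4 by 0.32, Dnajb9 by 0.31 and Canx by 0.13. Canx lost the call without R15 3 (0.11, adjusted p = 0.060). The 7 lower genes were Sdf2l1 (-0.90), Sec61b (-0.75), Herpud1 (-0.61), Manf (-0.47), Dnajb11 (-0.38), Pdia3 (-0.37) and Calr (-0.29). Sec61b was the surest of these (limma adjusted p = 0.00011). Hspa5 (-0.02), Hsp90b1 (-0.01), Hyou1 (0.03), Xbp1 (-0.20), Atf6 (0.02), Pdia6 (-0.15), Creld2 (0.25), Edem1 (-0.21) and Syvn1 (0.13) did not pass. The count of lower chaperone arm genes was 4 without DDC 2, DDC 3, DDC 4, R15 1 or R15 3 in turn, as well as without the 5 libraries with acinar transcripts. Sdf2l1, Manf and Calr were the calls lost in each of these.

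R15 against Control asks what still differed from mice that never ate the diet. In the ATF4 arm 3 of 11 genes passed, all as higher, against 6.87% of all genes higher and 2.72% lower. In the chaperone arm 1 of 22 passed, as lower. The split over all genes depends on the scaling: 1048 passed as higher and 415 as lower with FPKM as deposited, 622 and 804 with median-of-ratios scaling and 594 and 468 with quantile normalization. The median log2 differences were 0.10 and -0.07, beside 0.05 for all genes tested. Averaged over the 12 ATF4 arm genes, R15 1, R15 2 and R15 3 stood at 0.02, 0.28 and 0.08 on the log2 scale relative to the Control mean, with R15 2 above and the others within the Control range of -0.15 to 0.12. Over the 22 chaperone arm genes they stood at -0.24, 0.06 and -0.12.

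Ppp1r15a was higher in R15 than in Control by 0.74 ± 0.18 (SE; limma adjusted p = 0.036), Gdf15 by 0.73 ± 0.18 (0.034) and Phgdh by 0.32 ± 0.09 (0.048). All 3 R15 libraries lie above all 4 Control libraries for each of these genes. R15 2 is the highest of the 3 for each, and it was the highest of its group for 10 of the 12 ATF4 arm genes. This rank was not counted over all genes. Without R15 2 the differences were 0.53 for Ppp1r15a (adjusted p = 0.097), 0.60 for Gdf15 (0.11) and 0.26 for Phgdh (0.14). The count of 3 also fell to 0 without Control 1, Control 3, DDC 2, DDC 3 or R15 1 in turn, and to 1 without DDC 1 or DDC 4. Psat1, at 0.28 ± 0.08, did not pass (adjusted p = 0.061) but did without R15 3 (0.36, 0.038). It was below 1 FPKM in every Control library and was tested only through its DDC and R15 levels.

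Dnajc3 was the chaperone arm gene that passed in R15 against Control, at -0.32 ± 0.04 (SE; limma adjusted p = 0.0030), with all R15 values below all Control values. It passed with any single library left out. Whether the call holds without the 5 libraries with acinar transcripts cannot be judged, because 1 Control library is left. The log2 difference of Dnajc3 there was -0.29. Herpud1 (-0.35, adjusted p = 0.13) passed without Control 2 (-0.47, 0.017). Pdia4 (-0.15, 0.086) and Canx (-0.12, 0.076) did not pass. Sdf2l1, Dnajb11, Pdia3, Hspa5, Xbp1, Atf6, Ern1 and the other tested members, Psat1 aside, did not pass either, with log2 differences from -0.47 (Asns) to 0.13 (Sesn2). The intervals are wide for some of these: for Sdf2l1 it ran from -0.78 to 0.67 and for Asns from -1.32 to 0.37.

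Other genes of the same pathways were described from lists, whose counts in DDC stand against 33.5% of all genes tested that passed as higher and 31.9% as lower. Of 16 genes for eIF2 kinases and their regulators, 9 rose and 4 fell in DDC (median 0.21). Of the 4 kinases, Eif2ak1 (0.16 ± 0.04, SE; limma adjusted p = 0.0024), Eif2ak2 (0.31 ± 0.06, 0.0011) and Eif2ak3 (0.30 ± 0.06, 0.0013) rose and Eif2ak4 fell (-0.15 ± 0.05, 0.025). Eif2s1, the eIF2 subunit that these kinases phosphorylate, rose from 13.8 ± 0.965 to 23.6 ± 0.661 FPKM (SD, n = 4 each), at 0.73 on the log2 scale. Eif2b2, a subunit of the exchange factor of eIF2, rose by 0.38 and Impact, which inhibits activation of the Eif2ak4 kinase, by 0.44.

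Of 20 tested ATF4 target genes outside the arm, 9 rose and 7 fell (median 0.20), beside the same 33.5% and 31.9% of all genes. Slc7a5, an amino acid transporter, rose from 1.98 ± 0.901 to 8.06 ± 0.575 FPKM (SD, n = 4 each), at 1.65 ± 0.20 (SE; limma adjusted p = 4.5e-05). Cebpb, a transcription factor gene that is also induced in inflammation, rose by 1.21, and Vldlr, a lipoprotein receptor gene, fell by 0.53 on the log2 scale. Of the 20 cytosolic aminoacyl-tRNA synthetases, which charge tRNAs and of which several are ATF4 targets, 15 rose and 1 fell (median 0.25). Those with the smallest p were Vars (0.80), Gars (0.55) and Lars (0.54). In R15 against Control, 2 synthetases (Gars and Lars) and 1 gene of the eIF2 list (Gcn1) passed as higher and 1 outside ATF4 target (Pck2) as lower, beside 6.87% and 2.72% of all genes.

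Of 33 other genes of ER folding and degradation, 8 rose and 12 fell in DDC (median -0.06), beside 33.5% and 31.9% of all genes, which are also the shares for the next 3 lists. Creb3l2, a membrane-bound transcription factor gene of the ATF6 type, fell from 29.0 ± 3.66 to 13.2 ± 1.03 FPKM (SD, n = 4 each), a log2 difference of -1.08. Os9, a degradation lectin, fell by 0.44 on the log2 scale, and Vcp, the ATPase that pulls proteins out of the ER membrane, rose by 0.39. Of 25 genes of ER translocation and N-glycosylation, 10 rose and 3 fell (median 0.12), with Sec62 at -0.63, Stt3b at -0.43 and Srp72 at 0.28. Of 15 cytosolic heat shock genes, 2 rose and 3 fell: Hsph1 was at -1.001, Chordc1 at -0.42 and Hsf1, the heat shock factor, at -0.38. Of 10 mitochondrial chaperones and proteases, 2 rose and 4 fell, with Clpx at -0.47, Dnaja3 at -0.38 and Lonp1 at 0.26.

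Of 17 immediate early genes, which also respond to handling of cells during isolation, 11 rose in DDC and 6 did not pass (median 1.07), where 33.5% of all genes passed as higher. Fosl1 and Egr2 reached the filter on low values with no Control library, and without them 9 of 15 rose (median 0.93). Nr4a1 rose from 8.45 ± 2.01 to 68.9 ± 5.06 FPKM (SD, n = 4 each), Ier3 from 27.9 ± 6.74 to 106 ± 12.3 and Fosl1 from 0.114 ± 0.0433 to 2.62 ± 0.387. In R15 against Control, 3 of the 17 passed, all as higher (median 0.61), beside 6.87% of all genes. These were Jun (1.15), Nr4a1 (1.01) and Fosl1 (0.42), of which Fosl1 was below 1 FPKM in every Control and R15 library and was tested only through its DDC levels. Without Fosl1 and Egr2, 2 of 15 passed (median 0.66). Ppp1r15a, Ddit4 and Gdf15 were higher in the same DDC libraries, and the part of early gene induction in their values was not tested.

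**Figure D5:**
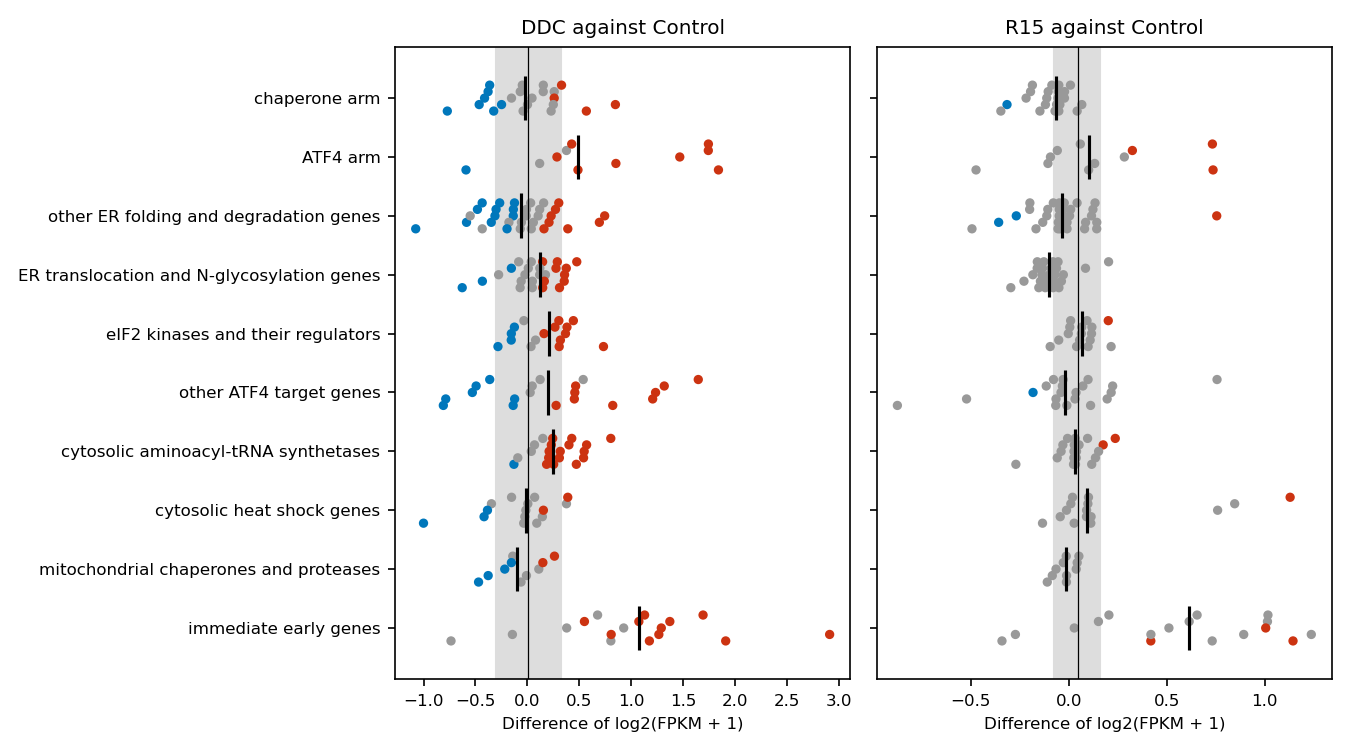
Log2 differences of each tested gene in both arms and 8 further lists, for DDC against Control (left) and R15 against Control (right). Points are genes (red passed as higher, blue as lower, grey neither), black ticks list medians, the thin line the median and the grey band the interquartile range of all genes tested. In DDC the medians of the ATF4 arm (0.49) and the immediate early genes (1.07) lie to the right of the band, and that of the chaperone arm (-0.02) inside it.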

How the data were processed

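FPKM values were deposited by the authors in 1 table. Libraries were stranded mRNA per the labels' protocols, with build mm10 per the submitters' processing notes. Aligner, counting tool and annotation release: not given in the sources used here. Members were matched by gene name. The members, the lists and the acinar and gastric markers were chosen with earlier results of these data known. All 11 libraries entered 1 group-means model in limma 3.58.1 (R 4.3.3) on log2(FPKM + 1), with eBayes and a variance trend. A gene entered the test at 1 FPKM or more in 3 or more libraries (15264 genes), and p was 2-sided, adjusted by Benjamini-Hochberg, at a threshold of 0.05. The procedure was tested on simulated data. FPKM values gave whole reads for 100% of nonzero values within 0.001, taking the gene length as given plus 1, which is inferred. These reads were used for depth and for 1 alternative test with limma voom. Each library is 1 mouse. Values in every library are given for 5 fixed genes (Atf6, Xbp1, Atf4, Ddit3 and Hspa5), for the 3 largest passing rises and falls of each arm in DDC against Control and for the 2 largest in R15 against Control. All members are named, as are the 3 genes with the smallest p of each other list. Coordinates are those of the table, and 28 of 34 members have the same ones in GENCODE M21. Promoters are from RefSeq (GRCm38.p6).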

Additional observations from a re-analysis of the deposited data

Results flagged for a closer look

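Among the members' levels in the 4 Control and the 4 DDC libraries, 68 groups of values were checked for a single library far from the rest, and 1 was found. Syvn1, which encodes the ubiquitin ligase HRD1, had 18.8 FPKM in Control 1 where the other Control libraries had 14.1 to 14.4. The gap to the nearest library was 0.935 of the group's range, above Dixon's critical value for 4 values at a confidence level of 95%. Chance alone gives about 1 such library in 20 groups. Control 1 is also the library with the highest summed acinar markers (8927 FPKM), and their part in the Syvn1 value was not tested.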

How the results depend on the processing

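Each member's log2 difference was recomputed under 24 settings. Of 2370 values, 2236 kept their side of the threshold, 96 lost a call, 38 gained one and 0 called values reversed. Values that passed in neither fit count as kept even where their sign changed. Hspa5 in DDC against Control, for example, ran from -0.18 to 0.12 over the settings. The rises of the ATF4 arm in DDC numbered 7 to 9 under every setting. Higher ATF4 arm genes in R15 against Control (3) were 1 with pseudocount 5 or quantile normalization. They were 0 with no filter, with only the groups compared or without Control 1 and Control 3 (0 to 3 with single libraries left out). Leaving out the 5 libraries with acinar transcripts leaves 1 Control library, so a call lost there cannot be told apart from the loss of libraries. Without Control 1 and Control 3, higher chaperone arm genes in DDC were 8. Lower chaperone arm genes in R15 against Control were 3 with median-of-ratios scaling, and 1 to 2 with single libraries left out. Those in R15 against DDC were 4 with no filter and 4 to 8 with single libraries left out. The causes were not tested, except that fewer libraries give wider errors by construction.

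With the replicate number as a block, higher ATF4 arm genes in R15 against Control were 1 and lower chaperone arm genes in R15 against DDC were 4. Each mouse was sampled at 1 time, so the numbers do not link libraries of the same mouse. Correlations of same-numbered deviations ran from -0.28 to 0.30, which cannot show whether a number marks a shared batch.

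Other counts over all genes in R15 against Control were 962 and 298 with no filter, 247 and 70 with only the groups compared and 486 and 207 with the block. Depth limits Chac1 (14 to 103 reads) most.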
